A study of Monodelphis domestica with 7 samples.

Results

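MARCO (ENSMODG00000000433) and a gene described as similar to the macrophage mannose receptor MRC1 (ENSMODG00000009695, called MRC1-like here) were taken by their gene identifiers from the count table of spinal cord RNA of the gray short-tailed opossum, Monodelphis domestica, and are 2 of its 21314 genes. Both were among the 13534 genes with enough reads to be tested. Pups of either sex from a laboratory colony, born at an early stage of development, received a complete transection of the thoracic cord at postnatal day 7 (P7) or 28 (P28), and the segment rostral to the cut was collected 24 h later. There were 2 libraries of P7+24h injured cords, 2 of P28+24h injured cords, 2 of uninjured P8 control cords and 1 of uninjured P29 control cords, each a pool of 2 individuals. Replicate 1 of each group came from a first and replicate 2 from a second sequencing run, each with its own sample collection, so collection and sequencing cannot be told apart. At the younger age whole litters were operated on and other litters served as controls, so litter and injury cannot be told apart there. The study asks what transection changes at P7, when axons later grow across the lesion, and at P28, when they do not.

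MARCO, the macrophage receptor with collagenous structure, is a class A scavenger receptor that binds bacteria, oxidised lipoproteins and particles and delivers them for uptake. MRC1, also called CD206, is a C-type lectin that recycles between the cell surface and endosomes and takes up glycoproteins and microbes that carry mannose or fucose. In the adult nervous system of mammals MRC1 marks the macrophages of the meninges and perivascular spaces rather than resting microglia, while MARCO is found on some resident macrophages and on others after stimulation. The name of the MRC1-like gene comes from the study's own tables, which give it no symbol. Reads shared with another gene of the mannose receptor family could have been counted on either one or left out, so its level is uncertain to that extent.

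Library totals ran from 3332232 to 6256074 counts, and every second-run library was deeper than every first-run library. One count was worth between 0.15 and 0.353 CPM, the read count scaled to a common library size with TMM factors, so both genes lay near the limit of detection in uninjured cord. Neural genes were present throughout: GFAP, the astrocyte filament protein, had at least 256 CPM in each library. Genes of red blood cells were also present, and 5 of them summed to between 9622 and 23137 CPM in the first run and between 2337 and 5312 CPM in the second.

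MARCO was barely detected in uninjured cord, and the MRC1-like gene had few reads there. Both genes were higher in each of the 4 injured libraries than in any control library. The share of all genes that separate in this way was not counted, so the separation alone is a description. Injured cords reached nearly the same level of each gene at the 2 ages, with MARCO at 5.64 CPM ± 2.05 (SD, n = 2) at P7+24h and 5.75 CPM ± 2.86 at P28+24h and the MRC1-like gene at 5.54 CPM ± 1.07 and 5.24 CPM ± 0.0769. The change was clearest for MARCO averaged over the ages, where it rose by 3.82 on the log2 scale and passed the quasi-likelihood test only with the run accounted for. The main fit, which has no run term, called neither gene in any comparison. DESeq2, also fitted without a run term, did not call the averaged change. With the run accounted for, the same test called neither gene at either age alone. In tissue RNA, more cells that express a gene and more of its RNA per cell cannot be told apart.

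MARCO had 1 count in the first-run P8 control library and 2 in the second, or 0.248 and 0.330 CPM. The P7+24h injured libraries held 27 and 28 counts, or 7.09 and 4.19 CPM. Both injured libraries thus lay far above both controls, though with so few libraries unchanged genes can separate too, and their share was not counted. The P29 control library held 2 counts, or 0.575 CPM. The P28+24h injured libraries held 22 and 23 counts, or 7.77 and 3.73 CPM. Again both injured libraries were above the control, and at either age the first-run library was the higher one.

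**Figure D1:**
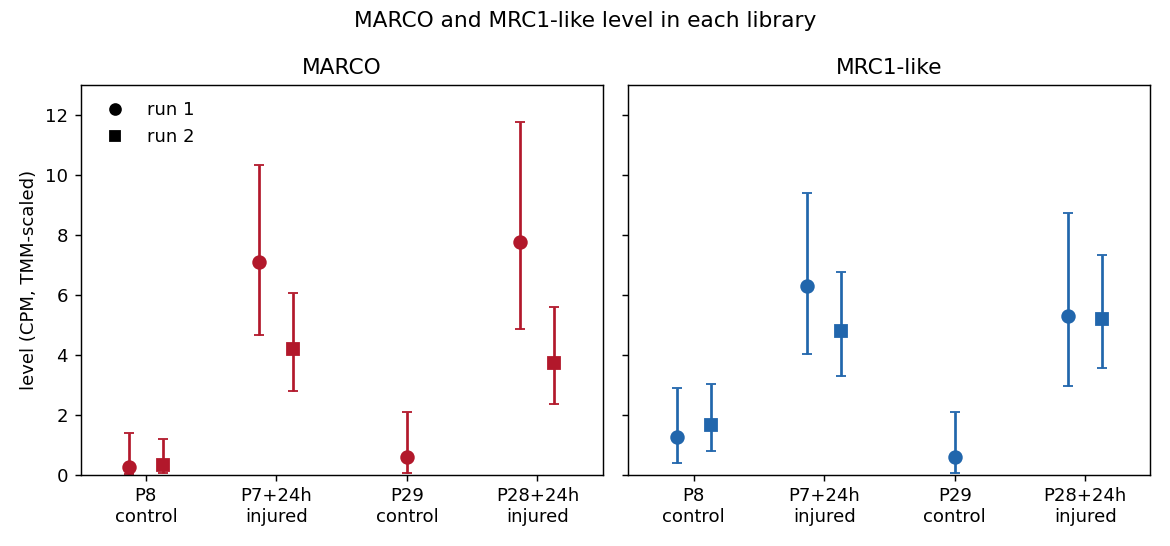
Level of MARCO (left) and of the MRC1-like gene (right) in each library, in CPM with TMM scaling on the vertical axis; circles are the first and squares the second sequencing run, and bars are exact 95% Poisson intervals, which cover counting error only. All 4 injured libraries sit above all 3 control libraries for both genes, and the injured libraries of the 2 ages overlap.

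With so few control reads, the size of the MARCO change is known only roughly. Counts of the 2 libraries summed, the P7+24h injured cords had 17.7 times the MARCO level of the P8 controls (95% counting interval 5.73 to 88.2). Within the runs the ratio was 28.6 (4.72 to 1173) in the first and 12.7 (3.20 to 110) in the second. At P28+24h the summed ratio was 8.70 (2.27 to 74.0), and within the first run, the only one with a P29 control, it was 13.5 (3.32 to 119). All lower bounds were above 1, and the intervals of the ages overlapped widely. These intervals hold counting error only and compare libraries, not conditions.

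The MRC1-like gene was already detected in the younger uninjured cord, with 5 and 10 counts in the P8 controls, or 1.24 and 1.65 CPM. After injury at P7 it had 24 and 32 counts, or 6.3 and 4.79 CPM. In the P29 control it had 2 counts, or 0.575 CPM, and after injury at P28 it had 15 and 32 counts, or 5.30 and 5.19 CPM. Its injured libraries lay above its controls at either age, and here too the share of all genes that do so was not counted. The second-run level was 0.979 times that of the first run (0.515 to 1.95) at P28+24h, whereas for MARCO it was 0.480 times (0.256 to 0.903), so only the MARCO libraries of that group differed by more than counting error.

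Expressed as ratios, the MRC1-like level was 3.60 times that of the controls (2.01 to 6.85) at P7+24h over the summed libraries. The ratio was 5.09 (1.90 to 17.1) within the first run and 2.90 (1.39 to 6.62) within the second. At P28+24h the summed ratio was 9.09 (2.38 to 77.2), resting on the 2 counts of the single control.

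In the quasi-likelihood test of edgeR without a run term, MARCO had a log2 fold change of 4.12 (standard error 0.74, adjusted p = 1) at P7+24h and of 3.23 (standard error 0.95, adjusted p = 1) at P28+24h. The MRC1-like gene had 1.90 (standard error 0.46, adjusted p = 1) and 3.13 (standard error 0.73, adjusted p = 1). With 1 P29 control library, the older comparison borrowed its spread from the other groups. That fit called 0% of the 13534 genes, in either direction, at both ages. At an unadjusted p under 0.05 it had 69 genes at P7+24h, MARCO ranking as number 3 of all genes, and 157 at P28+24h. Over all libraries, edgeR's exact test called 4 genes higher at P7+24h (0.0296%), MARCO among them (log2 fold change 4.13, adjusted p = 0.0329), and 2 higher (0.0148%) and 1 lower (0.00739%) at P28+24h, without either gene. DESeq2, like the exact test fitted without a run term, called 2 genes higher (0.0148%) and 0 genes at the 2 ages, MARCO not among them (adjusted p = 0.733 and 1).

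Libraries of the same run deviated together, and a second fit took up that difference by holding the replicate number as a block. With the block, the log2 fold change of MARCO was 4.06 (standard error 0.60, adjusted p = 0.104 by edgeR quasi-likelihood) at P7+24h and 3.58 (standard error 0.79, adjusted p = 0.0647) at P28+24h. The MRC1-like gene reached 1.85 (standard error 0.43, adjusted p = 0.559) and 3.20 (standard error 0.80, adjusted p = 0.0921). None of these 4 values passed, in a fit that called 0.0148% of genes higher at P7+24h and 0.584% higher and 0.17% lower at P28+24h. With 1 library left out in turn this fit kept 1 residual degree of freedom and called more genes, 0.052% to 0.357% of all genes higher at P7+24h and 1.65% to 3.46% higher at P28+24h. In these fits MARCO was called at P28+24h in all 6 cases and at P7+24h in 5 of 6, the exception being without the first-run P8 control (3.498, adjusted p = 0.0593). The MRC1-like gene was then called at P28+24h in 4 of 6 cases, not without either P7+24h injured library, and at P7+24h in 2 of 6, those without either P28+24h injured library (1.83 in each). A likelihood ratio test on the same blocked model, which called 0.266% of genes higher at P7+24h, and 2.61% higher and 1.03% lower at P28+24h, did call both genes at both ages, MARCO with adjusted p = 3.21e-08 and 0.000555 and the MRC1-like gene with 0.00782 and 0.00455.

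Averaged over the ages, the blocked fit gave MARCO a log2 fold change of 3.82 (standard error 0.49, adjusted p = 0.0242 by edgeR quasi-likelihood). MARCO was 1 of the 17 genes called higher, 0.126% of those tested, with 0.00739% called lower. The MRC1-like gene, at 2.53 (standard error 0.44, adjusted p = 0.0529), did not pass. Both were called in each of the 6 blocked fits that left out 1 library, where 0.506% to 1.24% of all genes were called higher, and by the blocked likelihood ratio test (adjusted p = 1.42e-11 and 7.44e-06), which called 0.968% of genes higher and 0.0665% lower. Without the block the averaged changes were 3.68 and 2.51, both with an adjusted p of 1, in a fit that called 0% of genes and had 159 at an unadjusted p under 0.05. DESeq2, also without the block, called 5 genes (0.0369%) for the averaged change, neither MARCO nor the MRC1-like gene among them.

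A test on each gene alone, with no spread borrowed from other genes, compared the 4 injured with the 3 control libraries irrespective of age. The mean log2 CPM was higher in injured cord by 2.88 for MARCO and by 1.94 for the MRC1-like gene. For each the two-sided exact permutation p was 0.0286, the smallest that 35 splits allow. Splits within the runs numbered 18, and the exact p was then 0.0556 for each, again the smallest possible. The study had already listed both genes as raised by injury in these same data, and they were chosen with that known. These p-values are therefore not independent evidence of a rise.

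**Figure D2:**
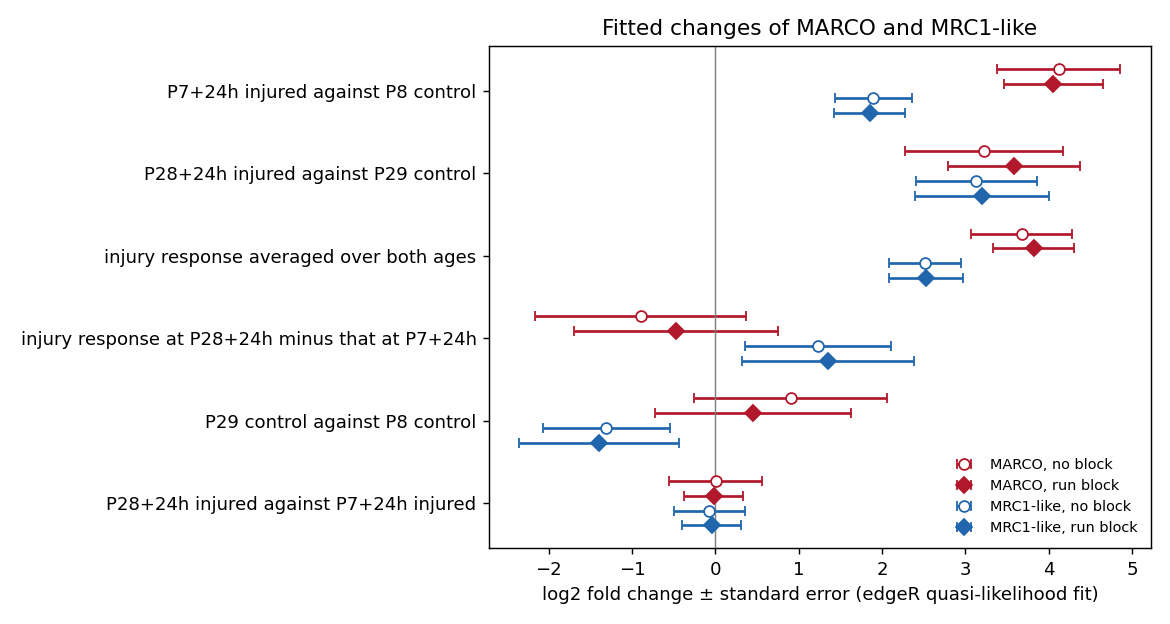
Fitted log2 fold changes of MARCO (red) and the MRC1-like gene (blue) in 6 comparisons, with bars of 1 standard error on each side, from edgeR's quasi-likelihood fit without (open circles) and with (filled diamonds) the run block. Both genes lie to the right of 0 in the injury comparisons and at 0 between the injured cords of the 2 ages; the blocked averaged change of MARCO, 3.82, is the one called.

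The responses of the 2 ages were not shown to differ. For MARCO the P28+24h response minus the P7+24h response was -0.90 on the log2 scale (standard error 1.27, adjusted p = 1 by edgeR quasi-likelihood) without and -0.47 (standard error 1.22, adjusted p = 0.945) with the block. For the MRC1-like gene it was 1.23 (standard error 0.87, adjusted p = 1) and 1.35 (standard error 1.03, adjusted p = 0.759). The unblocked fit called 0% of genes here and had 59 at an unadjusted p under 0.05, and the blocked fit called 0.0369% higher. The sign of the difference was opposite for the 2 genes, with control reads between 1 and 10 a library behind each.

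In uninjured cord, age made no detectable difference to either gene at this depth. The P29 control had 2.32 times the MARCO level of the P8 control of the same run (0.121 to 136.97) and 0.464 times its MRC1-like level (0.0442 to 2.84). The blocked log2 fold changes of P29 against P8 control were 0.45 (standard error 1.17, adjusted p = 0.802 by edgeR quasi-likelihood) and -1.39 (standard error 0.96, adjusted p = 0.303). The same fit called 12.5% of genes higher and 8.89% lower with age, and the unblocked fit 1.71% and 0.0739%.

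In injured cord, where reads were more numerous, the ages could be compared more closely. The P28+24h level of MARCO was 1.10 times that of P7+24h (0.595 to 2.00) in the first run and 0.891 times (0.490 to 1.60) in the second. For the MRC1-like gene the ratios were 0.840 (0.410 to 1.67) and 1.08 (0.643 to 1.83). The blocked log2 fold changes were -0.02 (standard error 0.36, adjusted p = 0.969 by edgeR quasi-likelihood) and -0.04 (standard error 0.36, adjusted p = 0.953), in a comparison that called 13.8% of genes higher and 8.8% lower at P28+24h (2.26% and 0.547% without the block).

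Other macrophage and microglia genes with an identifier had other values. Of 26 markers of these cells, 12 had an identifier, too few to stand for the list, and those identifiers came from the study's tables of changed genes, mostly through a rise after injury at P28. Neither their direction after injury nor a higher level at P28+24h than at P7+24h is therefore independent evidence, and their difference from MARCO and the MRC1-like gene was not tested. Between the injured cords of the 2 ages, 11 of the 12 were called higher at P28+24h with the block (median log2 fold change 1.59 over the 12), and the same fit called 13.8% of all genes. C1QA, a chain of the complement starter C1q, had 1.56 (standard error 0.21, adjusted p = 0.000251 by edgeR quasi-likelihood). CSF1R, the growth factor receptor on which microglia depend, had 1.98 (standard error 0.32, adjusted p = 0.000782). The remaining gene, F13A1, the factor XIII A chain of tissue macrophages, had 0.30 (standard error 0.78, adjusted p = 0.779). Without the block, 0 of the 12 were called.

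After injury, all 12 of these genes had positive estimates at both ages, with a blocked median of 1.83 at each. None was called in either comparison by the blocked quasi-likelihood test (smallest adjusted p = 0.0731 and 0.0625). The blocked likelihood ratio test called 9 of them at P7+24h and 10 at P28+24h, where it called 0.266% and 2.61% of all genes higher. Averaged over the ages, all 12 estimates were positive, from 1.55 to 2.51 with the block. The blocked quasi-likelihood test, which called 0.126% of all genes higher, called 3 of them, the C1q chains C1QA (1.55), C1QB (1.86) and C1QC (1.58). The blocked likelihood ratio test, which called 0.968% of all genes higher, called 11 of the 12. The MARCO estimate of 3.82 was larger than each of the 12 estimates, but the differences between genes were not tested. In uninjured cord the blocked fit called 6 of the 12 higher at P29 than at P8, against 12.5% of all genes, C1QA by 2.09 (adjusted p = 0.000676), and neither MARCO nor the MRC1-like gene was called there.

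**Figure D3:**
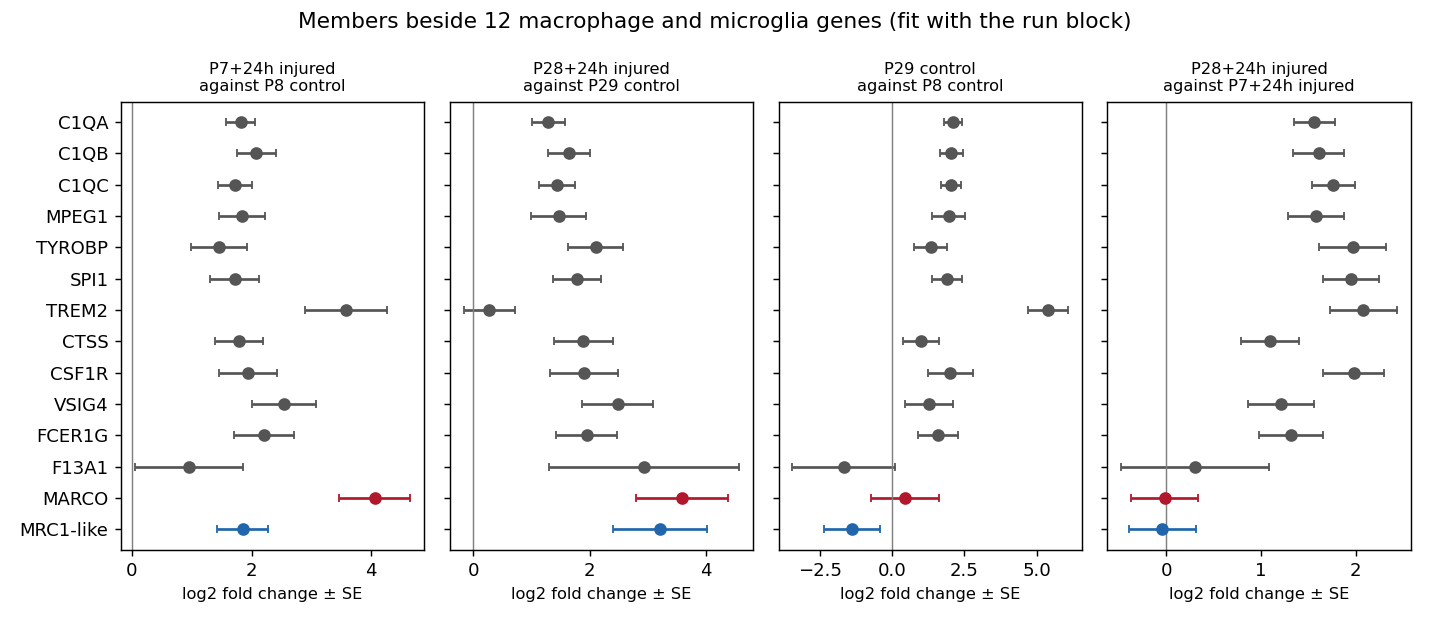
Log2 fold changes with bars of 1 standard error on each side, from the edgeR quasi-likelihood fit with the run block, for 12 macrophage and microglia genes (grey), MARCO (red) and the MRC1-like gene (blue) in 4 comparisons; the horizontal scales differ between panels. In the right panel, injured cords of the 2 ages, MARCO (-0.02) and the MRC1-like gene (-0.04) lie at 0 while 11 of the 12 grey genes were called higher at P28+24h.

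The summed level of the 12 genes was 42.3 and 39.1 CPM in the P8 controls and 117 and 169 CPM in the P7+24h injured cords. It was 155 CPM in the P29 control, about that of the younger injured cords, and 531 and 388 CPM in the P28+24h injured cords. Among them, TREM2 had 0 counts in the first-run and F13A1 0 counts in the second-run P8 control.

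Set against these reads, MARCO made up 5.85 and 8.44 reads per 1000 reads of the 12 genes in the P8 controls and 60.7 (39.5 to 89.5) and 24.8 (16.4 to 36.0) in the P7+24h injured cords. It made up 3.70 (0.447 to 13.4) in the P29 control and 14.6 (9.15 to 22.2) and 9.62 (6.09 to 14.5) in the P28+24h injured cords. Within each run, the P7+24h injured value was above the P28+24h injured one with no overlap of counting intervals. The 12 genes were named mostly through a rise after injury at P28, so this order is not independent of their choice. The MARCO level itself was nearly the same, 5.64 CPM at P7+24h and 5.75 CPM at P28+24h. In the first run MARCO was also higher per macrophage read in P7+24h injured than in P8 control cord, beyond counting error, though the control held 1 read. In the second run the interval of the P8 control (1.02 to 30.8) overlapped that of the injured cord. At the older age the interval of the P29 control overlapped those of both P28+24h injured libraries.

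The MRC1-like gene made up 29.2 (9.37 to 69.6) and 42.2 (19.97 to 79.0) reads per 1000 in the P8 controls and 53.9 (34.2 to 81.3) and 28.3 (19.3 to 40.2) in the P7+24h injured cords. The intervals of control and injured cord overlapped at P7, those of the controls resting on 5 and 10 reads. Because the 12 genes were named from tables of genes changed by injury, this ratio cannot show whether the gene changed relative to macrophage genes in general. The value was 3.70 (0.447 to 13.4) in the P29 control and 9.98 (5.57 to 16.5) and 13.4 (9.14 to 19) in the P28+24h injured cords, overlapping again. All 4 libraries from the younger cords lay above all 3 from the older ones. These ratios were not tested, and the choice of the 12 genes, mostly through a rise at P28, bears on this order too.

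**Figure D4:**
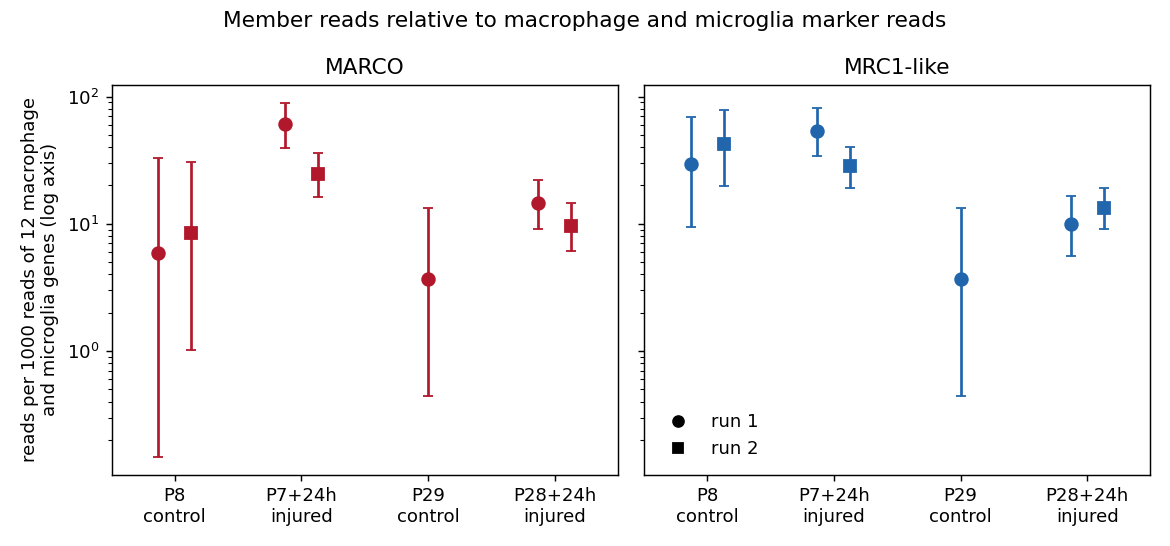
Reads of MARCO (left) and of the MRC1-like gene (right) per 1000 reads of 12 macrophage and microglia genes in each library, on a logarithmic axis; circles are the first and squares the second sequencing run, and bars are exact 95% intervals covering counting error only. The P7+24h injured values (MARCO 60.7 and 24.8) lie above the P28+24h injured ones (14.6 and 9.62), and the MRC1-like values of all 4 younger libraries lie above those of the 3 older ones. The 12 genes were named mostly through a rise after injury at P28, so neither order is independent of their choice.

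The share of MARCO in the combined reads of the 2 genes was low in the younger controls, but few control reads stand behind it. MARCO supplied 3 of their 18 combined reads in the P8 controls (16.7%, exact Clopper-Pearson 95% interval 3.58 to 41.4%), 2 of 4 in the P29 control (50%, 6.76 to 93.2%) and 5 of 22 over all controls (22.7%, 7.82 to 45.4%). In the injured libraries it supplied 100 of 203 (49.3%, 42.2 to 56.4%), with single libraries between 41.8% and 59.5%. The intervals of the P29 control and of all controls overlapped that of the injured libraries, and no difference in share was tested. Shares depend on gene length and are read here only between libraries.

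The other scavenger receptors and lectins with an identifier were few, 2 of the 21 other scavenger receptors and 1 of 20 other lectins of the mannose receptor and myeloid groups. The quasi-likelihood test, blocked or not, called none of these 3 after injury at either age. The blocked likelihood ratio test called SCARF1 higher at P28+24h (adjusted p = 0.00206), where it called 2.61% of all genes higher. SCARB2, a lysosomal membrane protein, had 94.8 CPM in the P29 control and 42.7 and 86.6 CPM in the P28+24h injured cords (blocked log2 fold change -1.0, adjusted p = 0.0747 by edgeR quasi-likelihood). SCARF1, a receptor of endothelial cells and phagocytes, had 19 CPM there and 45.6 and 16.1 CPM (1.33, adjusted p = 0.0655). CLEC11A, a secreted growth factor with a lectin fold, had 37.9 CPM and then 81.2 and 21.9 CPM (0.90, adjusted p = 0.142). For each of these the second injured library lay on the other side of, or closer to, the control than the first. The P29 control is a first-run library, so the second injured library was compared with it across runs. All 3 genes also differed between the first-run and second-run P8 controls: SCARB2 37.4 and 66.9 CPM, SCARF1 12.6 and 4.12 CPM, CLEC11A 50.5 and 22.4 CPM.

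CSF2RB, the signalling chain of the receptor for the macrophage growth factor GM-CSF, was the 1 of 19 genes of cytokine signals to macrophages that had an identifier. Its levels were 0.743 and 0.330 CPM in the P8 controls, 4.46 and 10.3 CPM at P7+24h, 1.72 CPM in the P29 control and 8.83 and 6.65 CPM at P28+24h. Like MARCO and the MRC1-like gene, its injured libraries lay above its controls. The study had listed CSF2RB as raised by injury at both ages, so this likeness is not independent of its choice. The share of all genes that separate in this way was not counted. For CSF2RB the blocked change between the injured cords of the 2 ages was -0.03 (standard error 0.40, adjusted p = 0.955 by edgeR quasi-likelihood). Its averaged change after injury was 2.91 (standard error 0.50, adjusted p = 0.0528), which did not pass in that test. The blocked likelihood ratio test, which called 0.968% of all genes higher, did call it (adjusted p = 1.88e-06). Of 24 microbial sensors and NF-kappaB genes, 0 had an identifier.

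Genes of vessels and blood cells followed these results only in part. Of 15 endothelial markers, 2 had an identifier, and the quasi-likelihood test called neither after injury. At P28+24h VWF, von Willebrand factor, had 48.0 and 68.3 CPM against 26.7 CPM in the control (blocked log2 fold change 1.06, adjusted p = 0.163 by edgeR quasi-likelihood). KDR, a VEGF receptor, had 78.4 and 91.9 CPM against 137.4 CPM (-0.77, adjusted p = 0.109). For 4 of 20 blood monocyte and neutrophil markers, including the calprotectin chains S100A8 and S100A9 and the G-CSF receptor CSF3R, the summed level was 19.3 and 4.78 CPM in the P8 controls, 31.8 and 10.2 CPM at P7+24h, 12.6 CPM in the P29 control and 38.8 and 31.3 CPM at P28+24h. The quasi-likelihood test, blocked or not, called none of the 4 after injury at either age. The blocked likelihood ratio test called S100A8 (3.29, adjusted p = 0.00999) and PLAC8 (1.60, adjusted p = 0.00304) at P28+24h, where it called 2.61% of all genes higher. S100A9 had 0 counts in the second-run P8 control. The summed level of 5 of 16 red cell genes was 14899 and 2386 CPM in the P8 controls and 9622 and 2337 CPM at P7+24h, no higher after injury. At P28+24h it was 23137 and 5312 CPM against 10616 CPM in the P29 control. There the blocked quasi-likelihood fit called 2 of the 5 higher, the embryonic globin HBZ (2.48, adjusted p = 0.0229) and the transcription factor GATA1 (2.00, adjusted p = 0.0268). The same fit called 0.584% of all genes higher there, and neither MARCO nor the MRC1-like gene. Identifiers of the vessel and blood cell genes came from the study's supplementary tables, mostly of genes changed by injury. Their calls after injury are therefore not independent evidence. As with MARCO, the monocyte and neutrophil sum and the red cell sum were higher in the first than in the second run of each injured group. Both sums were also higher in the first run of the P8 controls. MARCO had only 1 and 2 counts there (0.248 and 0.330 CPM), too few to order the runs (second to first 1.33, 0.0693 to 78.5). The part of blood cells in the levels of MARCO and the MRC1-like gene was not tested.

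Over the 7 libraries and all genes tested, the genes with levels most like MARCO (Pearson's r of log2 CPM) included a CCL8-like (0.954) and a CCL3-like (0.947) chemokine gene, whose products attract monocytes, and ALOX5AP (0.931), which is needed for leukotriene synthesis. The other 2 of the closest 5 have no name in the tables used here. Nearest to the MRC1-like gene were 3 unnamed genes, the CCL8-like gene (0.926) and MARCO itself (0.912). The 7 points share run, depth and injury status, and these values are descriptions only. With each run centred, the CCL3-like gene (0.970) stayed among the closest 5 to MARCO and the CCL8-like gene and ALOX5AP did not, PFDN2, a prefoldin chaperone subunit, being first (0.979). None of the 5 closest to the MRC1-like gene then stayed, and MARCO ranked 10.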

How the data were processed

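RNA from pooled spinal cord was sequenced in 7 libraries. After trimming, the authors aligned reads to the opossum genome of Ensembl release 69 (Bowtie2) and counted them per nuclear gene (HTSeq, union mode). Strand use was not stated. The deposited values are unscaled counts for 21314 genes. The submitters' processing notes name edgeR 2.6.12.

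With TMM scaling, edgeR 4.0.16 tested 13534 genes (filterByExpr, minimum count 10) by quasi-likelihood, all libraries in 1 fit, with Benjamini-Hochberg adjustment over all genes. Genes were called at an adjusted p below 0.05 with at least a 2-fold change. Groups follow the library labels. Replicate numbers are the sequencing run. Differences between runs correlated across genes between groups (r = 0.80, 0.70 and 0.74), so a fit with the replicate block is given beside the one without. P-values over these pools measure the spread between pools. Per-library log2 CPM used a prior count of 2. Intervals (95%, Poisson or binomial) cover counting error only, and conditional binomial intervals were used for ratios.

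Genes named are MARCO and the MRC1-like gene, the 5 closest in pattern to each, and, per marker list, at most 6 measured members of highest mean CPM plus those called. The members and the lists were chosen with earlier results of these data known. Of 183 list symbols, 34 had an identifier, taken from the study's supplementary tables; at under 80% no list stands for its cell type. Alternatives were the block, a likelihood ratio test, edgeR's exact test, DESeq2 1.42.0, RLE factors, library size only, other filters, the compared groups only, thinned counts and leaving out each library. The scripts were tested on simulated data. R 4.3.3, limma 3.58.1, Python 3.11, numpy 2.4.6, pandas 2.3.3, scipy 1.17.1 and matplotlib 3.10.9 were used.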

Additional observations from a re-analysis of the deposited data

How the results depend on the processing

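Depth limited the precision: control libraries held between 1 and 10 reads of either gene, and the single P29 control could not be left out. Of 270 values under an alternative, 212 kept their direction and side of the threshold. Gained calls came with the pairing by run or another test. The replicate block called MARCO averaged over the ages (3.82). A likelihood ratio test with the block called MARCO at P7+24h (4.06), P28+24h (3.59) and averaged (3.82) and the MRC1-like gene at 1.85, 3.21 and 2.53, and edgeR's exact test called MARCO at P7+24h (4.13). Splits within runs left the single-gene differences at 2.88 and 1.94 but took their exact permutation p from 0.0286 to 0.0556, the smallest they allow. Leaving out 1 library in turn, with or without the block (the blocked fits were added after seeing the data), MARCO ranged from 3.498 to 4.76 at P7+24h, 2.64 to 3.63 at P28+24h and 3.38 to 4.19 averaged, and the MRC1-like gene from 1.60 to 2.23, 3.06 to 3.33 and 2.35 to 2.75. Without the block none of these left-out fits changed a call.

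Reversed signs were confined to changes that no fit called. MARCO between the injured ages, 0.01, became -0.0202 with the block, -0.0212 with its likelihood ratio test, -0.0205 with RLE factors, -0.0171 without a low-count filter, -0.0015 with a filter of 1 CPM in 2 libraries, -0.0133 in DESeq2, -0.12 in thinned counts and -0.21 by library size alone, and ranged from -0.57 to 0.43 with 1 library left out. The MRC1-like gene ranged there from -0.34 to 0.17. With 1 library left out, MARCO between the control ages ranged from -0.14 to 1.13 and its difference between responses from -1.48 to 0.12, the MRC1-like gene from -1.71 to -1.07 and 0.91 to 1.66. A fit of the compared groups only gave no value for the control ages. The cause of these changes was not tested. Per 1000 reads of the 3 C1q genes in place of the 12, MARCO had 92.2 and 43.7 reads at P7+24h and 22.6 and 17.5 at P28+24h, the same order. These 3 are among the 12 and were named from the same tables of changed genes, so this is no independent check.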
